A study of Oryza sativa with 12 samples.

Results

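The genes of rice ribosomal proteins were described here in seedlings of 2 near-isogenic lines, with and without heat. Members were the genes whose deposited description holds the words ribosomal protein, Ribosomal L or Ribosomal S, without kinases, methyltransferases and acetyltransferases. The rule found 347 of the 40674 genes in the deposited table, and it used no measured value. By wording, 204 belonged to the large subunit, 126 to the small subunit and 17 to neither.

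RNA was sequenced from the aerial organs of 12-day-old seedlings, with 3 libraries in each of 4 groups. The first group, called HPS32 heat, was the line NIL-TT2HPS32, labelled as having lost the function of TT2, kept at 42.5 °C for 20 h. The second, HJX heat, was the line NIL-TT2HJX, labelled wild type, kept at 42.5 °C for 20 h. The other groups, HPS32 28 °C and HJX 28 °C, were the same lines kept at 28 °C. TT2 encodes a gamma subunit of a heterotrimeric G protein. A near-isogenic line carries a segment from a donor parent, so the lines may differ in other genes of that segment too. The labels do not say whether the libraries of a group came from separate plants, so p-values measure only the spread between these samples.

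A ribosome joins a small subunit, which reads the messenger RNA, to a large subunit, which forms the peptide bonds. Plant cells hold several kinds: those of the cytosol, and those of plastids and mitochondria, whose proteins resemble bacterial ones and are mostly encoded in the nucleus. In green tissue the plastid ribosomes translate core proteins of photosynthesis, and most cytosolic ribosomal proteins are encoded by several near-identical genes.

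Each member was therefore also given a type by its protein family. Families of the eukaryotic cytosolic ribosome made up the cytosolic type, with 138 genes. Families of the bacterial kind made up the organelle type, with 89 genes. Families with members in both kinds made up the shared type, with 120 genes, and for these the wording does not tell the compartment. No gene symbols are paired with the identifiers in the files, so genes are given by identifier and family.

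Libraries held 14785975 to 17871972 reads assigned to genes. Reads of TT2 numbered 16 in HPS32 heat, 8 in HJX heat, 7 in HPS32 28 °C and 9 in HJX 28 °C, summed over 3 libraries, which is too few to check the labels. Of 28 markers of green leaf (chlorophyll a-b binding proteins and the small subunit of Rubisco), 27 had reads at 28 °C. They took 0.773% ± 0.0916 of the reads in HPS32 heat, 0.311% ± 0.0691 in HJX heat, 7.57% ± 0.124 in HPS32 28 °C and 7.71% ± 0.697 in HJX 28 °C (SD, n = 3 each). The root transporter gene LSI1 stood at 4.03 ± 0.483, 2.97 ± 1.06, 9.92 ± 1.5 and 10.3 ± 3.27 CPM, the reads scaled to a common library size, in the same order of groups. LSI2, the other root marker, had 7, 6, 0 and 1 reads.

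A member was tested when it had enough reads in the libraries, and 279 of 347 were: 165 of the large subunit, 97 of the small subunit and all 17 of neither. By type these were 112 cytosolic, 66 organelle and 101 shared genes. Of the 68 members not tested, 30 had no read at all and none had more than 75 reads over the 12 libraries. None of the 13 members encoded in the plastid genome and none of the 5 in the mitochondrial genome was tested. The plastid-encoded members had 12, 10, 15 and 18 reads in all in HPS32 heat, HJX heat, HPS32 28 °C and HJX 28 °C, and the mitochondrial-encoded members 63, 64, 4 and 5. Reads of near-identical gene copies may have been split or dropped, since the handling of reads that match several genes is not given in the sources used here, so values of single copies are uncertain to that extent.

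Ribosomal protein genes took a smaller share of the reads in HJX heat than in any other group, and their scaled level was also lowest there. The share was 2.70% ± 0.0831 in HPS32 heat, 1.74% ± 0.0375 in HJX heat, 2.59% ± 0.105 in HPS32 28 °C and 2.51% ± 0.0489 in HJX 28 °C (SD, n = 3 each). The libraries of HJX heat lay below those of the other groups. In CPM scaled by TMM, which corrects for a change in the make-up of the RNA, the members summed to 21256 ± 689 in HPS32 heat, 16436 ± 358 in HJX heat, 30103 ± 1363 in HPS32 28 °C and 29050 ± 744 in HJX 28 °C, so on that scale both heated groups stood below those at 28 °C. The ratio of HPS32 heat to HPS32 28 °C was 1.04 for the share and 0.706 for the TMM-scaled CPM, and its sign rests on the scaling. By share, large-subunit genes took 1.59% ± 0.0473, 1.05% ± 0.0247, 1.48% ± 0.0603 and 1.42% ± 0.0332 in that order, and small-subunit genes 0.979% ± 0.0317, 0.605% ± 0.0119, 0.996% ± 0.0409 and 0.975% ± 0.012. The small-subunit sum includes Os03g0856500 of the S30EA family, whose proteins bind idle ribosomes. This gene alone held 211, 104, 1810 and 1812 TMM-scaled CPM, of small-subunit sums of 7719, 5711, 11596 and 11303 in that order. The sum without it was not computed. In bulk samples, fewer cells of a type and less RNA per cell cannot be told apart.

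The types differed in their shares under heat. Cytosolic-type genes took 1.22% ± 0.0474 of the reads in HPS32 heat, 0.776% ± 0.0181 in HJX heat, 0.866% ± 0.04 in HPS32 28 °C and 0.864% ± 0.0362 in HJX 28 °C. Organelle-type genes took 0.332% ± 0.00551, 0.197% ± 0.00736, 0.654% ± 0.0357 and 0.617% ± 0.00649. The share under heat was 0.508 times that at 28 °C in HPS32 and 0.319 times in HJX for the organelle type, and 1.41 times in HPS32 and 0.898 times in HJX for the cytosolic type. On TMM-scaled CPM the ratios in HPS32 and HJX were 0.344 and 0.26 for the organelle type and 0.958 and 0.731 for the cytosolic type, so the sign of the cytosolic change in HPS32 rests on the scaling. The organelle-type sums of 2621, 1858, 7612 and 7152 CPM, in the order of groups above, include the 211, 104, 1810 and 1812 CPM of Os03g0856500.

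**Figure D1:**
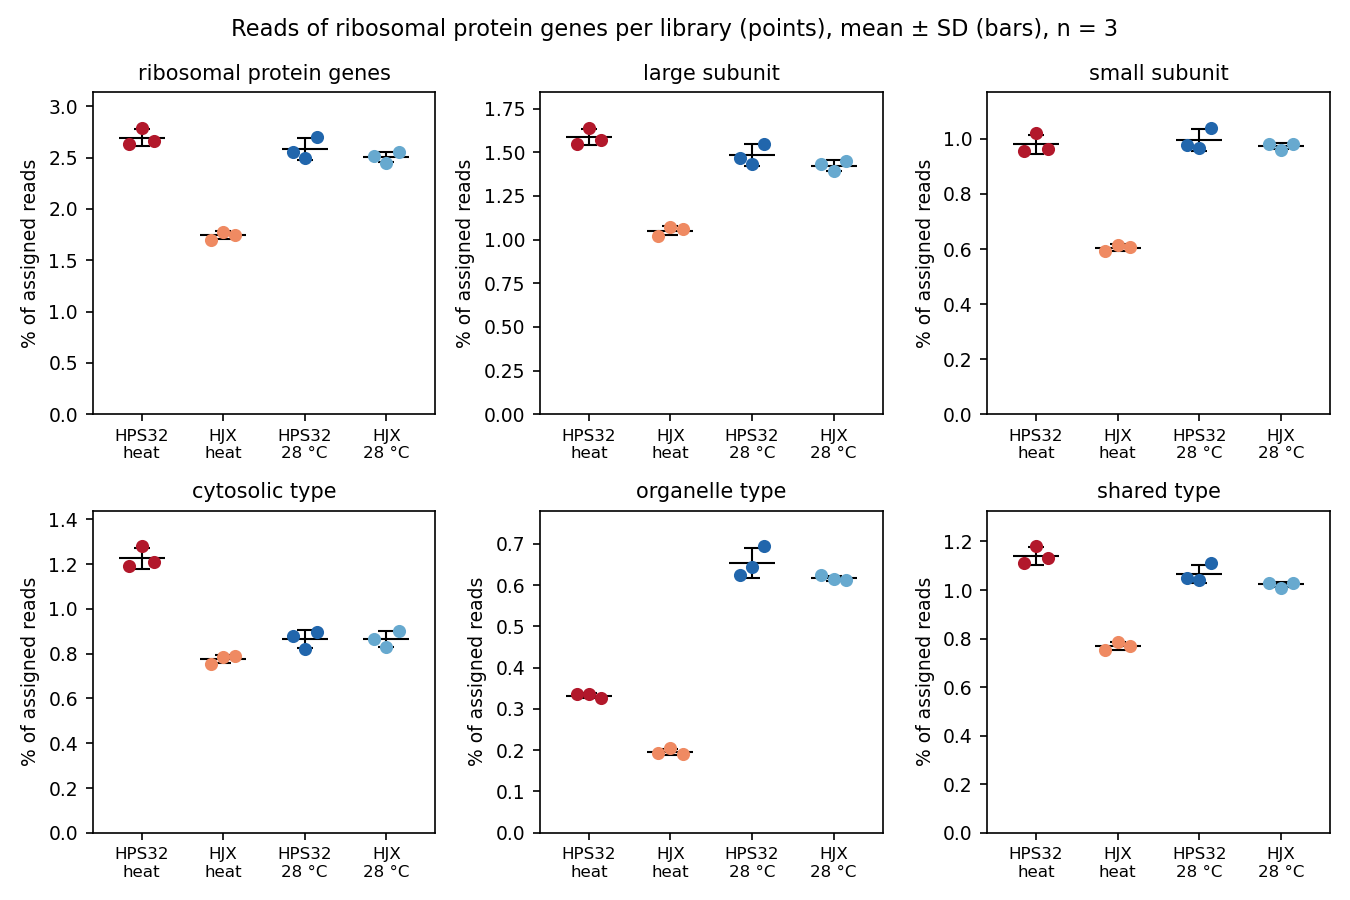
Share of the assigned reads (%, vertical axes from 0) taken by all ribosomal protein genes and by each subunit and type, for the 4 groups along the horizontal axes. Points are libraries and bars the mean ± SD (n = 3); all members together took 1.74% in HJX heat, below the 2.51% to 2.70% of the other 3 groups.

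At 28 °C no ribosomal protein gene passed the test between the lines. With edgeR's quasi-likelihood test and Benjamini-Hochberg adjustment, 0 members were higher in HPS32 28 °C and 0 were lower, against 0.0432% of all 25473 tested genes in each direction. At an unadjusted p under 0.05 there were 16 members, against 6.54% of all tested genes, and DESeq2 and limma-voom called 0 as well. The median log2 fold change of HPS32 28 °C over HJX 28 °C was 0.01 over the members. The libraries of HPS32 28 °C all lay above those of HJX 28 °C for 28 members (10%) and below for 10 (3.58%), against 5.59% and 4.75% of all tested genes.

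In HPS32, heat divided the members almost evenly. Of 279 tested members 104 rose and 97 fell, against a background of 34% of all tested genes higher and 36.4% lower. The median log2 fold change of HPS32 heat over HPS32 28 °C was 0.04 over the members and -0.03 over all tested genes. Of the large subunit 65 genes rose and 54 fell (median 0.09), and of the small subunit 30 rose and 37 fell (median -0.00). The cytosolic type had 37 rises and 38 falls, the organelle type 31 and 25, and the shared type 36 and 34, with medians of -0.01, 0.24 and 0.03. These counts depend on the scaling: scaled by total counts alone, 197 members were higher and 42 lower with a median of 0.60, while the median of all tested genes moved to 0.54.

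In HJX, more members fell than rose. Heat raised 67 and lowered 158 of 279, against a background of 38.1% higher and 36.8% lower, and the median log2 fold change of HJX heat over HJX 28 °C was -0.40 over the members and 0.03 over all tested genes. Large-subunit genes had 43 rises and 89 falls (median -0.36), and small-subunit genes 18 and 61 (median -0.53). Cytosolic-type genes had 16 rises and 72 falls (median -0.47), and shared-type genes 25 and 58 (median -0.40). The organelle type had 26 rises and 28 falls with a median of 0.04. Scaled by total counts alone, 96 members were higher and 118 lower with a median of -0.10, and the median of all tested genes was 0.32.

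Under heat most ribosomal protein genes were higher in HPS32 than in HJX. Of 279 members, 201 were higher in HPS32 heat and 8 were lower, against a background of 21.6% higher and 23.6% lower, and the median log2 fold change of HPS32 heat over HJX heat was 0.49 over the members and 0.03 over all tested genes. Both subunits shared in it, with 117 higher and 4 lower large-subunit genes (median 0.49) and 75 higher and 2 lower small-subunit genes (median 0.48). By type, 88 cytosolic genes were higher and 5 lower, 36 organelle genes were higher and 1 lower, and 77 shared genes were higher and 2 lower, with medians of 0.52, 0.38 and 0.47. The 3 libraries of HPS32 heat all lay above those of HJX heat for 214 members (76.7%) and below for 11 (3.94%), against 28.5% and 29.7% of all tested genes. The differences were mostly modest: 15 of the 201 were at least 2-fold higher and 0 members at least 2-fold lower, against 5.13% and 4.86% of all tested genes. The authors' deposited table gave 201 members higher and 9 lower for this pair of groups, and 200 and 8 of these were also called here.

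The heat responses of the lines differed in the same direction. In the interaction, which subtracts the heat effect in HJX from that in HPS32, 160 members were positive and 5 negative, against a background of 13.3% and 16%. Of these, 7 were positive by at least 2-fold and 0 negative, against 4.26% and 4.02%. The median difference was 0.46 on the log2 scale over the members and 0.02 over all tested genes. It was positive for 79 and negative for 3 cytosolic genes, 21 and 0 organelle genes, and 60 and 2 shared genes. This test shares the heat libraries with the comparison of the lines under heat, so the counts of both are not independent. Green leaf markers, of which 25 of 28 were tested, moved with these results: in the interaction 19 were positive and 0 negative with a median of 1.16, and under heat 20 were higher and 1 lower in HPS32. Their part in the ribosomal protein results was not tested.

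**Figure D2:**
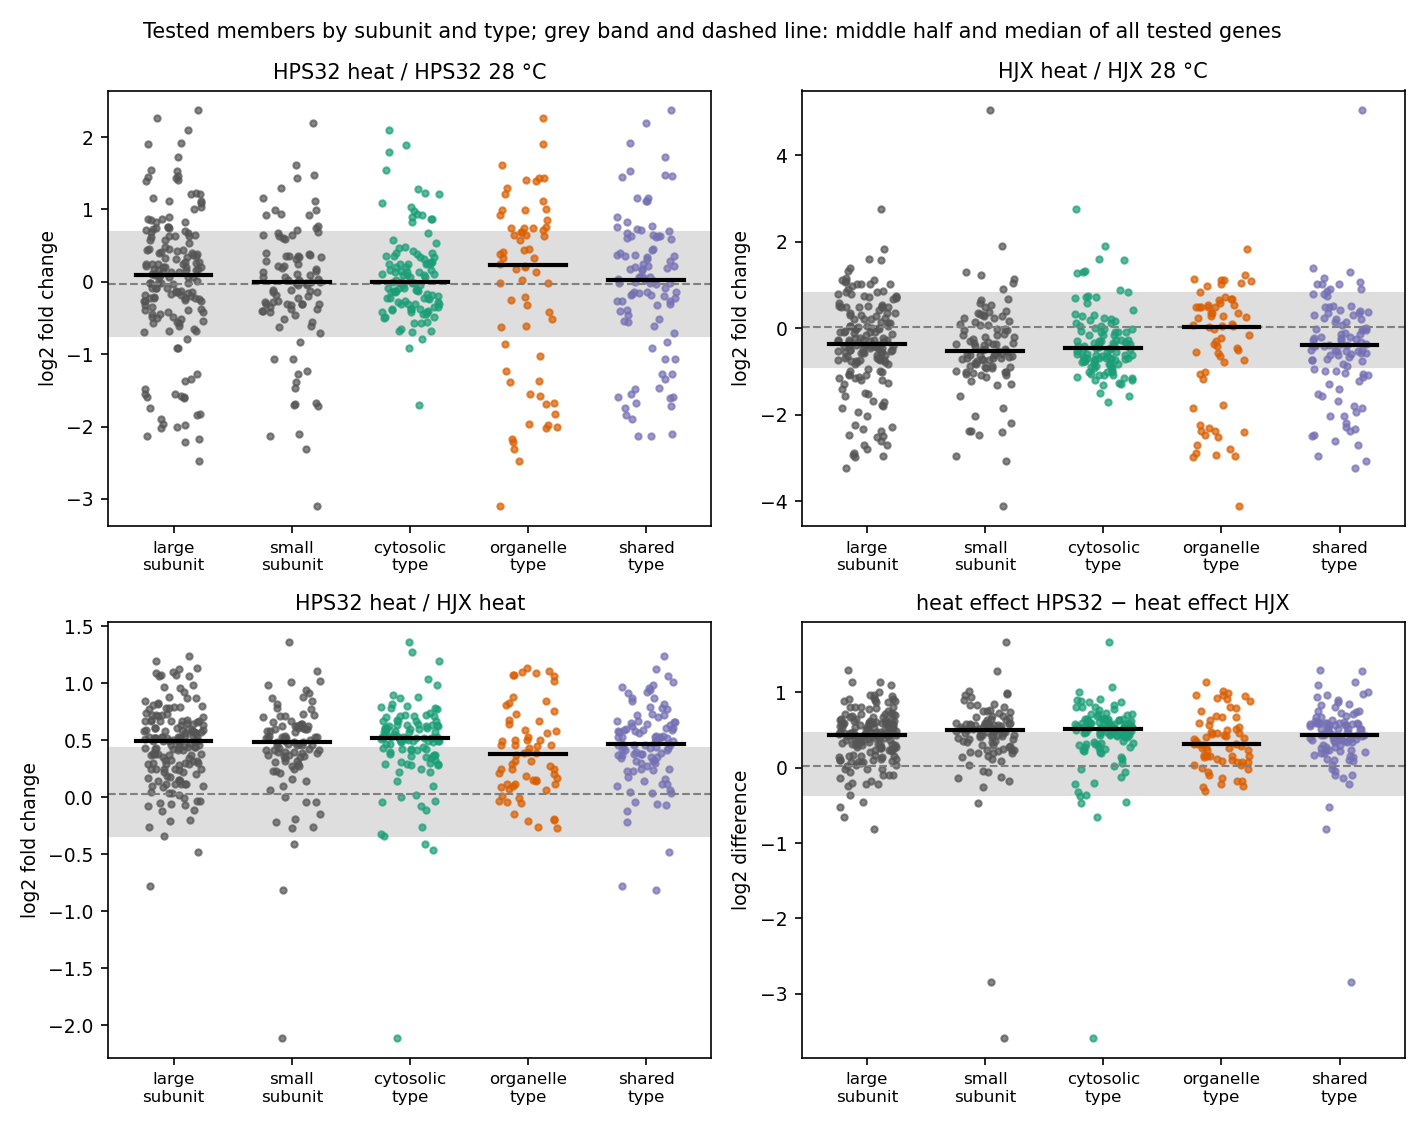
Log2 fold changes of the 279 tested members (points) by subunit and by type for heat in each line, the lines under heat and the interaction. Black bars are class medians, the grey band runs between the quartiles of all 25473 tested genes and the dashed line their median; for the lines under heat all class medians lie between 0.38 and 0.52 and that of all genes at 0.03.

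Gene by gene, 95 members (34.1%) fell in both lines, against 29.9% of all tested genes. For 76 of these (80%) the interaction was positive, that is, they fell further in HJX, against 24.9% of all genes that fell in both lines. Another 51 (18.3%) fell in HJX without a call in HPS32, against 6.51% of all tested genes. For 40 of them (78.4%) the interaction was positive, against 38.1% of all genes with such calls. A further 62 (22.2%) rose in both lines, against 28.4% of all tested genes. Their interaction was positive for 17 (27.4%, against 5.12% of all genes that rose in both) and negative for 3. In HPS32 30 (10.8%) rose without a call in HJX, against 5.19%, and 15 of them (50%, against 28.3%) had a positive interaction. Then 5 rose in HJX without a call in HPS32 (1.79%, against 8.05%), 2 fell in HPS32 without a call in HJX (0.717%, against 4.84%), and 22 had no call in either line (7.89%, against 15.1%). The remaining 12 (4.3%) rose in HPS32 and fell in HJX, all with a positive interaction, as had all such genes, which made up 0.4% of all tested genes. Under total-count scaling 2 of these 12 kept opposite calls, so their directions, unlike their interaction, rest on the scaling.

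**Figure D3:**
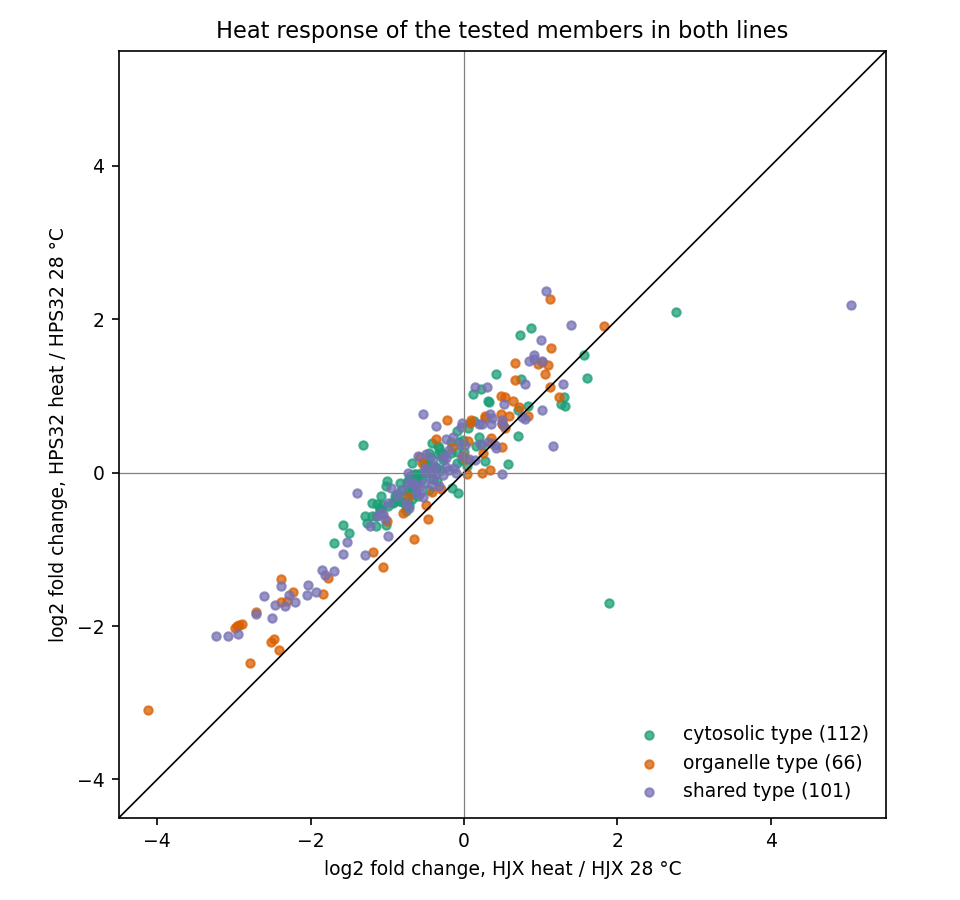
Log2 fold change under heat in HPS32 (vertical) against that in HJX (horizontal) for the 279 tested members, coloured by type, with the line of equal change. Most points lie above the line, and those that fell furthest in both lines are of the organelle and shared types.

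By the types used here, the strongest falls in HPS32 were all of the organelle and shared types. In HPS32 heat 37 members had fallen at least 2-fold, 18 of the organelle type, 19 of the shared type and 0 of the cytosolic type, against a background of 18.8%, and 32 had risen at least 2-fold, against 17.5%. In HJX heat 63 had done so, 19, 26 and 18 of these types, against a background of 22.5%, and 21 had risen at least 2-fold, against 19.8%. All 37 of the HPS32 genes were among the 63, which is 100% of the first list and 58.7% of the second. With types by literal wording, 1 of the 37 was of the cytosolic type. The 37 genes came from 35 families, 33 of which gave a single gene. Of the 37, 30 were the most abundant member of their family per length at 28 °C in both lines. This held by definition where the family had 1 member, as in S30EA, S20, L31 and PSRP-3. The share among the other members was not computed, so the count is no trait of the strong falls. All 37 in HPS32 and all 63 in HJX stayed lower under total-count scaling. That scaling put the median of all tested genes at 0.54 in HPS32 and 0.32 in HJX, from -0.03 and 0.03. A shift of that size could hardly turn a 2-fold fall, so this outcome was nearly fixed in advance and lends no weight. For 32 of the 37 the interaction was positive, and the share among all tested genes with such falls was not computed.

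Os03g0856500 (chromosome 3, 36132354 to 36134532, plus strand), of the S30EA family, had the highest mean level per length of all members. Proteins of this family in bacteria and plastids bind idle ribosomes. It stood at 212, 209 and 212 CPM in HPS32 heat, 99.7, 121 and 92.1 CPM in HJX heat, 1640, 1839 and 1950 CPM in HPS32 28 °C, and 1865, 1899 and 1673 CPM in HJX 28 °C. Every heat library was below every library at 28 °C, and HPS32 heat lay above HJX heat without overlap. The log2 fold change under heat was -3.10 ± 0.11 in HPS32 and -4.12 ± 0.11 in HJX (SE, edgeR adjusted p = 4.45e-15 and 9.93e-17), and the interaction was 1.02 ± 0.14 (edgeR adjusted p = 2.3e-05).

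Several large-subunit genes of the organelle type fell in both lines. Os02g0822600 (chromosome 2, 35320316 to 35322965, minus strand) encodes an L9-family protein, a rod-shaped protein near the base of the L1 stalk in bacteria. It stood at 51.6, 52.4 and 52.2 CPM in HPS32 heat, 23.9, 28.6 and 22 CPM in HJX heat, 208, 197 and 228 CPM in HPS32 28 °C and 205, 184 and 199 CPM in HJX 28 °C. The groups under heat did not overlap each other or those at 28 °C, and the interaction was 0.96 ± 0.12 (edgeR adjusted p = 9.36e-06). Os01g0805000, of the L34 family, averaged 55 ± 2.6 CPM in HPS32 heat, 26.2 ± 4.09 in HJX heat, 220 ± 4.84 in HPS32 28 °C and 204 ± 10.8 in HJX 28 °C, with an interaction of 0.96 ± 0.12. Os06g0683200, an L24 gene of organelle wording, averaged 85.9 ± 5.8, 39.1 ± 5.77, 339 ± 14 and 298 ± 12.3 CPM in the same order, with an interaction of 0.95 ± 0.13. For all of these HJX heat was the lowest group.

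Other genes of the organelle type had small interactions. Os06g0647100 (L35) averaged 60.9 ± 5.01 CPM in HPS32 heat, 44.5 ± 4.31 in HJX heat, 339 ± 16.3 in HPS32 28 °C and 308 ± 15.2 in HJX 28 °C, with log2 fold changes of -2.48 ± 0.09 and -2.79 ± 0.09. Os01g0924000 (L27), which sits near the peptidyl transferase centre in bacteria, changed by -2.21 ± 0.07 in HPS32 and -2.51 ± 0.08 in HJX, and Os05g0101400 (L28) by -2.17 ± 0.07 and -2.48 ± 0.08. The interaction of these 3 genes was 0.30 to 0.31 with edgeR adjusted p of 0.0294 to 0.0494, and each of these calls was lost when one of 5 to 8 of the libraries was left out. Os02g0189000 (S21) changed by -2.31 ± 0.15 and -2.41 ± 0.15, and its interaction was 0.09 ± 0.20 (edgeR adjusted p = 0.775).

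Small-subunit genes with large falls included Os04g0691600 (S17, chromosome 4, 35381557 to 35382214, plus strand), whose family helps to fold the ribosomal RNA of the small subunit. Its values were 63.1, 70.4 and 77.1 CPM in HPS32 heat, 35.7, 37.7 and 31.3 CPM in HJX heat, 297, 299 and 326 CPM in HPS32 28 °C and 292, 306 and 280 CPM in HJX 28 °C. HPS32 heat lay above HJX heat without overlap, and both lay far below 28 °C, with log2 fold changes of -2.13 ± 0.09 and -3.07 ± 0.09. Os01g0678600, of the bacterial-type S20 family, averaged 132 ± 2.81 CPM in HPS32 heat, 61.3 ± 9.81 in HJX heat, 347 ± 16.5 in HPS32 28 °C and 320 ± 15.2 in HJX 28 °C. Its interaction of 0.99 ± 0.13 was among the 10 with the smallest adjusted p (edgeR adjusted p = 1.07e-05). Os03g0452300 (S5, a family that helps to keep decoding accurate in bacteria) had 90.1, 96.7 and 101 CPM in HPS32 heat, 50.2, 55.3 and 44.4 in HJX heat, 382, 416 and 439 in HPS32 28 °C and 375, 417 and 364 in HJX 28 °C, with an interaction of 0.85 ± 0.12.

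The genes of the stalk, the flexible arm of the large subunit that recruits translation factors, changed in both directions. Of the 4 tested genes described by the L10/P0 domain alone, which anchors the stalk, Os03g0284400 (chromosome 3, 9781436 to 9782524, minus strand) had 77.1, 81.2 and 78.9 CPM in HPS32 heat, 33.1, 42.7 and 33.2 in HJX heat, 218, 242 and 266 in HPS32 28 °C, and 232, 227 and 204 in HJX 28 °C. It fell in both lines, with log2 fold changes of -1.61 ± 0.10 in HPS32 and -2.61 ± 0.10 in HJX. Os12g0105200 (chromosome 12, 267897 to 269698, minus strand) rose instead: it averaged 34.8 ± 0.851 CPM in HPS32 heat, 23.2 ± 0.846 in HJX heat, 10.5 ± 1.11 in HPS32 28 °C and 11.5 ± 0.822 in HJX 28 °C, a rise of 1.73 ± 0.10 and 1.01 ± 0.10. Os11g0105400 rose by 1.45 ± 0.10 and 0.85 ± 0.10. Genes on the ends of chromosomes 11 and 12 of rice are often near-identical copies, so reads of this pair may have been shared. All 4 of these L10/P0 genes were higher in HPS32 heat than in HJX heat.

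The acidic P1/P2 proteins, which form the arm of the cytosolic stalk, numbered 6 tested genes without the L10/P0 domain, of which 1 rose and 4 fell in HPS32, and 1 rose and 5 fell in HJX. Of all tested genes 34% rose and 36.4% fell in HPS32, and 38.1% rose and 36.8% fell in HJX. Os08g0116500, one of the 5 members with the highest level per length, averaged 252 ± 22.5 CPM in HPS32 heat, 217 ± 2.49 in HJX heat, 297 ± 5.01 in HPS32 28 °C and 298 ± 12.6 in HJX 28 °C. Its log2 fold changes under heat were -0.23 ± 0.07 in HPS32, against 0.33 under total-count scaling, and -0.46 ± 0.07 in HJX. Without the first heat library of HPS32 its change there was -0.16 (edgeR adjusted p = 0.0688). Its difference between the lines under heat, 0.22 ± 0.07, lost its call without any one of 3 libraries (0.18 to 0.21). Os06g0701400 had 71.0, 66.1 and 69.3 CPM in HPS32 heat, 39.6, 42.0 and 39.3 in HJX heat, 87.4, 90.6 and 96.5 in HPS32 28 °C and 93.5, 88.7 and 85.2 in HJX 28 °C. HJX heat was below all other groups, and the interaction was 0.73 ± 0.10 (edgeR adjusted p = 1.47e-05); the change in HPS32, -0.41 ± 0.07, was 0.15 under total-count scaling. The descriptions of another 2 tested genes name both the P1/P2 and the L10/P0 domain: both rose in HPS32, had no call in HJX and were higher in HPS32 heat than in HJX heat. One of them, Os12g0133050, chosen after its values were seen, averaged 33.4 ± 1.16 CPM in HPS32 heat, 19 ± 1.71 in HJX heat, 15.7 ± 1.57 in HPS32 28 °C and 16.3 ± 1.41 in HJX 28 °C, so HPS32 heat stood above the other groups. Of the 5 tested genes of the bacterial-type counterpart L7/L12, 4 rose and 1 fell in HPS32, beside the same background. In HJX, of the 3 described by the C-terminal domain alone 2 rose and 0 fell, and of the other 2 genes 1 rose and 1 fell. The gene that fell in HPS32, Os05g0568300, averaged 21.2 ± 2.11 CPM in HPS32 heat, 14.8 ± 3.48 in HJX heat, 63.3 ± 11.9 in HPS32 28 °C and 52.8 ± 3.74 in HJX 28 °C.

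Of 38 tested cytosolic-type genes of the small subunit, 7 rose and 13 fell in HPS32, and 5 rose and 28 fell in HJX. That is 18.4% and 34.2% of them in HPS32, where the background was 34% and 36.4%, and 13.2% and 73.7% in HJX, where it was 38.1% and 36.8%; the share that fell in HPS32 was near the background. Os03g0424800 encodes an S19e protein, a component of the head of the 40S subunit. It had 91.6, 103 and 97.6 CPM in HPS32 heat, 57.2, 61.0 and 59.9 CPM in HJX heat, 122, 99.4 and 109 CPM in HPS32 28 °C and 125, 112 and 124 CPM in HJX 28 °C. HPS32 heat overlapped HPS32 28 °C, while HJX heat lay below all other libraries. The change was -0.18 ± 0.08 in HPS32 (edgeR adjusted p = 0.051, 0.39 under total-count scaling) and -1.02 ± 0.08 in HJX (edgeR adjusted p = 6.61e-10), with an interaction of 0.84 ± 0.11. Another pair of genes was chosen after its values were seen. Os07g0616600 (40S SA, a laminin-receptor-like protein at the messenger RNA exit side) averaged 105 ± 4.68 CPM in HPS32 heat, 57.1 ± 7.42 in HJX heat, 113 ± 11 in HPS32 28 °C and 115 ± 3.5 in HJX 28 °C, with log2 fold changes of -0.11 ± 0.09 in HPS32 (edgeR adjusted p = 0.272, 0.45 under total-count scaling) and -1.01 ± 0.09 in HJX. Os07g0622100 (S6e, the target of S6 kinase) averaged 197 ± 5.54, 129 ± 7.09, 229 ± 16.8 and 226 ± 2.08 CPM in the same order, with log2 fold changes of -0.22 ± 0.07 in HPS32, against 0.34 under total-count scaling, and -0.81 ± 0.07 in HJX, so its direction in HPS32 rests on the scaling.

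Among the 12 genes with opposite calls, Os03g0818400 encodes S12/S23, a protein of the decoding centre. Its values were 74.3, 83.4 and 81.6 CPM in HPS32 heat, 47.8, 51.1 and 53.0 in HJX heat, 68.0, 64.4 and 70.0 in HPS32 28 °C and 70.6, 73.2 and 70.7 in HJX 28 °C. HPS32 heat lay above and HJX heat below all libraries at 28 °C, with log2 fold changes of 0.24 ± 0.07 and -0.50 ± 0.07 and an interaction of 0.74 ± 0.10. The other 11 belonged to the families S26e, 60S L5, S11, L4/L1, L35Ae, S10p/S20e, L7Ae/L30e/S12e, L22e and S3Ae. The pair of L4/L1 genes of cytosolic wording, Os03g0796501 and Os07g0180900, rose by 0.25 ± 0.07 each in HPS32 and changed by -0.46 ± 0.07 and -0.29 ± 0.07 in HJX, the last of which was 0.01 under total-count scaling.

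A small set of genes ran against the rest, being higher in HJX heat. Os05g0169100 (chromosome 5, 4142124 to 4144008, plus strand) belongs to the L16p/L10e family, whose cytosolic protein joins the large subunit late in its assembly. It had 403, 442 and 395 CPM in HPS32 heat, 709, 707 and 716 CPM in HJX heat, 300, 330 and 342 CPM in HPS32 28 °C and 340, 312 and 301 CPM in HJX 28 °C. HJX heat was the highest group and HPS32 heat came next, both without overlap with 28 °C. The log2 fold change under heat was 0.35 ± 0.08 in HPS32 and 1.16 ± 0.08 in HJX, and the interaction was -0.81 ± 0.11 (edgeR adjusted p = 2.05e-05).

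The other genes with a negative interaction were fewer and smaller in effect. Os10g0466700 (L14p/L23e), a protein of the subunit interface, averaged 280 ± 19.9 CPM in HPS32 heat, 390 ± 10.9 in HJX heat, 283 ± 26.7 in HPS32 28 °C and 276 ± 20.6 in HJX 28 °C, and its interaction was -0.52 ± 0.12. Os07g0673100 (S8e) averaged 128 ± 8.75, 170 ± 6.49, 119 ± 9.38 and 114 ± 13.1 CPM in that order, with -0.47 ± 0.12. Os07g0292800 (L24e) averaged 39.1 ± 2.92, 49.4 ± 2.44, 21.4 ± 1.25 and 19.8 ± 1.97 CPM, with -0.46 ± 0.13. The remaining gene, Os03g0241200 of the L7Ae/L30e/S12e wording, averaged 122 ± 7.95, 153 ± 3.05, 62.0 ± 4.63 and 62.1 ± 4.99 CPM, with -0.32 ± 0.11. All 5 were among the 8 members lower in HPS32 heat than in HJX heat; the others were Os02g0728600, Os05g0459900 (L36e) and Os10g0500500 (S18), the last of which lost its call without the third heat library of either line (-0.21 each time, edgeR adjusted p of at most 0.0762).

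In HPS32 the genes named for the largest rises were of low level. Among all tested members, log2 fold changes reached 2.37 for the large and 2.19 for the small subunit in HPS32. In HJX they reached 2.76 and 5.04, in genes not described here. Of the genes named for their rise in HJX, Os06g0308200 (L15e) came first in the large and Os07g0658200 (S9/S16) in the small subunit. Os06g0308200, whose description also names a pentacotripeptide-repeat region, averaged 7.68 ± 0.735 CPM in HJX heat and 2.54 ± 0.146 in HJX 28 °C. The 2 tested genes described by L15e alone fell in both lines. Os06g0339800 (L30p/L7e, chromosome 6, 13554616 to 13555059, plus strand) had 7.69, 7.25 and 6.29 CPM in HPS32 heat, 4.13, 3.56 and 3.93 CPM in HJX heat, 1.83, 1.07 and 1.2 CPM in HPS32 28 °C and 1.60, 2.22 and 1.66 CPM in HJX 28 °C. The 4 groups fell into an order of HPS32 heat, HJX heat and then both groups at 28 °C, which overlapped. It rose by 2.37 ± 0.23 in HPS32 and 1.07 ± 0.23 in HJX, and its interaction of 1.30 ± 0.34 (edgeR adjusted p = 0.00653) was the largest of the named genes. Os06g0546400 (L1p/L10e) averaged 25.5 ± 1.33, 20.8 ± 1.14, 6.76 ± 0.459 and 7.91 ± 0.472 CPM in the same order of groups, a rise of 1.92 ± 0.11 and 1.39 ± 0.11. Among small-subunit genes, Os08g0517900 (S16) averaged 35.7 ± 2.59, 27 ± 0.851, 11.6 ± 1.82 and 12.2 ± 0.571 CPM, with rises of 1.62 ± 0.11 and 1.14 ± 0.11. Os08g0359600 (S17) rose in HPS32 by 1.11 ± 0.11 and changed by 0.14 ± 0.11 in HJX (edgeR adjusted p = 0.271), at 30.3 ± 1.11 CPM in HPS32 heat, 16.6 ± 1.47 in HJX heat, 14.1 ± 1.39 in HPS32 28 °C and 15.1 ± 1.31 in HJX 28 °C.

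Most abundant members fell and most scarce ones rose in HPS32, and the falls of abundant members were near the background of genes of like level. In FPKM, here the CPM per kilobase of the deposited gene length, the members' median level was 63 in HPS32 heat, 41.6 in HJX heat, 63 in HPS32 28 °C and 60.7 in HJX 28 °C. Of the 93 members with the highest mean FPKM over the libraries (131 to 735), 14 rose and 58 fell in HPS32 and 6 rose and 77 fell in HJX. That is 15.1% and 62.4% in HPS32, against 19.3% and 66.6% of the 730 tested genes in that range of FPKM, and 6.45% and 82.8% in HJX, against 26% and 64.2%. Of the 93 lowest members (0.126 to 26.3), 53 rose and 11 fell in HPS32 and 39 rose and 22 fell in HJX. These were 57% and 11.8% in HPS32, against 37.5% and 29.8% of the 19513 tested genes in that range, and 41.9% and 23.7% in HJX, against 39.6% and 32.2%. In the organelle type, the 22 highest genes had 3 rises and 18 falls in each line, with medians of -1.68 in HPS32 and -2.38 in HJX. That is 13.6% and 81.8% in each line, where of the 3680 tested genes in their range 20.3% rose and 62.6% fell in HPS32 and 30.4% rose and 56.3% fell in HJX, with medians of -0.52 and -0.38. The 22 lowest genes had 15 rises and 2 falls in HPS32 and 11 rises and 4 falls in HJX, with medians of 0.70 and 0.41, and the 12516 tested genes in their range had a median of 0.13 in each line. Between the lines under heat, 84 of the 93 highest, 68 of the 93 middle and 49 of the 93 lowest members were higher in HPS32 heat, with medians of 0.52, 0.48 and 0.46. Those shares of 90.3%, 73.1% and 52.7% stood against 38.9%, 23.9% and 20.3% of all tested genes in the same ranges.

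**Figure D4:**
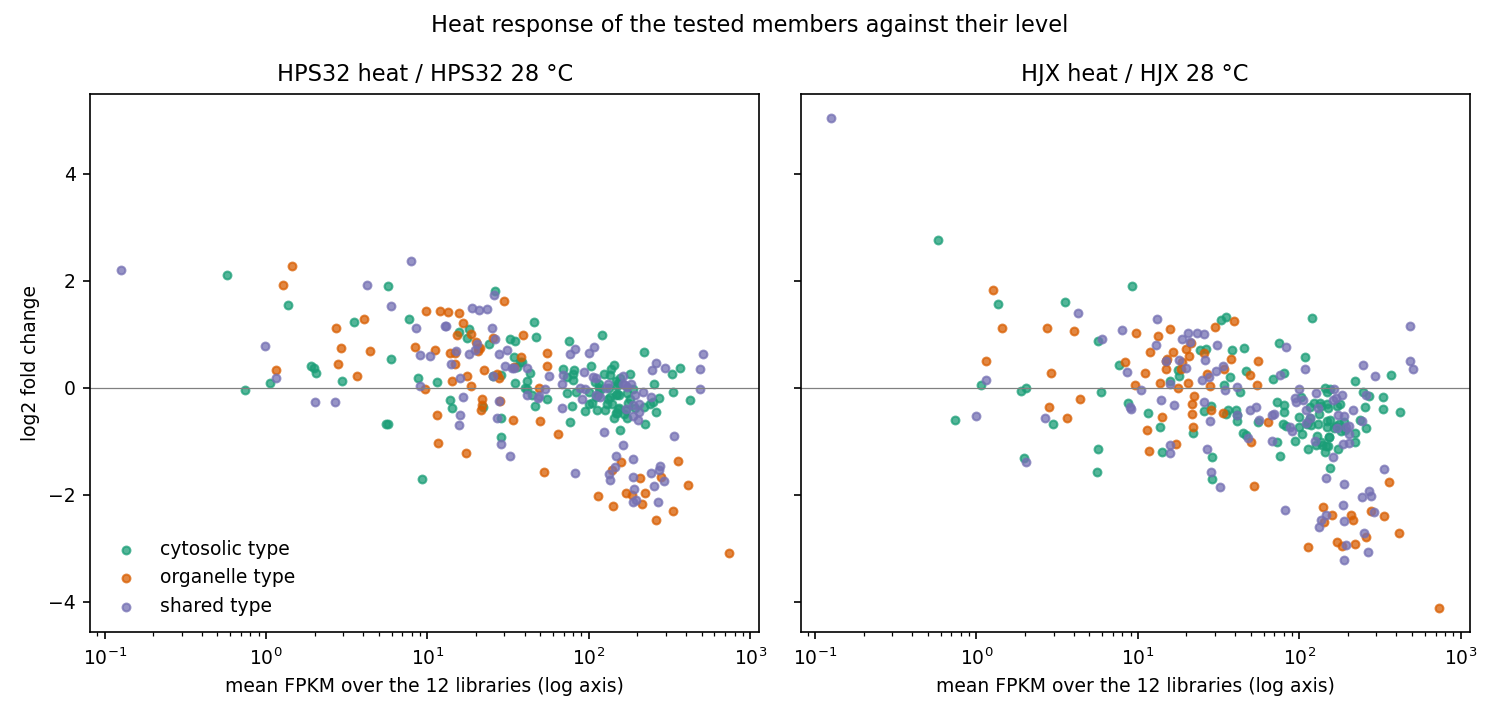
Log2 fold change under heat (vertical) against the mean FPKM over all 12 libraries (horizontal, log axis) for the tested members in HPS32 (left) and HJX (right), coloured by type. Most points beyond -1 in HPS32 are abundant genes of the organelle and shared types, while most members under 26.3 FPKM lie above 0 in that line.

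Members of one family did not all change alike under heat. The members fell into 119 families, of which 81 had at least 2 tested genes. At least 1 gene rose and at least 1 fell in 37 of these families in HPS32 and in 34 in HJX. This was so in 5 families between the heated lines and in 5 by interaction. Over all tested members 37.3% rose and 34.8% fell in HPS32, and 24% rose and 56.6% fell in HJX. At such rates groups of unrelated genes would hold both directions too. Whether families did so more often was not tested. All tested genes of the family fell in 7 families in HPS32 and 24 in HJX, and all were higher in HPS32 heat than in HJX heat in 38 families. The most abundant gene of the family per length was another one under heat than at 28 °C in 15 families in both lines. In all 15 the genes were the same in both lines at each temperature. For comparison, the most abundant gene differed between the lines in 4 families at 28 °C and in 7 under heat.

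The L18 family gave the widest gap. Os03g0828100 (chromosome 3, 34785473 to 34787245, plus strand) had 153, 151 and 156 CPM in HPS32 heat, 70.5, 85.2 and 64.8 in HJX heat, 523, 535 and 565 in HPS32 28 °C and 495, 471 and 479 in HJX 28 °C, a fall of -1.82 ± 0.09 and -2.71 ± 0.09. Of its 9 tested genes 5 rose and 2 fell in HPS32, and 5 rose and 3 fell in HJX. Os10g0484400 averaged 6.01 ± 0.84, 3.75 ± 0.919, 1.24 ± 0.471 and 1.72 ± 0.114 CPM in the same order, a rise of 2.27 ± 0.27 in HPS32 and 1.12 ± 0.26 in HJX. In the L6 family, which lies near the factor-binding site of the large subunit, Os03g0356300 (chromosome 3, 13627581 to 13630305, minus strand) had 74.0, 75.3 and 81.9 CPM in HPS32 heat, 32.1, 37.2 and 28.9 in HJX heat, 374, 286 and 350 in HPS32 28 °C and 308, 295 and 314 in HJX 28 °C. It fell by -2.13 ± 0.10 and -3.23 ± 0.11, and its interaction was 1.10 ± 0.14 (edgeR adjusted p = 1.02e-05). The L6 gene Os03g0725000 instead rose, by 0.70 ± 0.10 and 0.79 ± 0.10.

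The S5 family changed its leading gene. Os03g0807800 led with 53.3% of the summed FPKM of the family in HPS32 heat and 62% in HJX heat, and Os03g0452300 with 57.3% in HPS32 28 °C and 56% in HJX 28 °C. The sum was 328 in HPS32 heat, 241 in HJX heat, 599 in HPS32 28 °C and 572 in HJX 28 °C. In HPS32 the change of Os03g0807800 was itself negative, with a sign that total-count scaling turned, so whether it rose there rests on the scaling. Os07g0207400 rose by 1.48 ± 0.15 in HPS32 and 0.91 ± 0.15 in HJX. It overlaps Os07g0207301 of the same family on the other strand, and since the labels do not say whether strands were kept apart, their reads cannot be told apart. In the L11 family Os04g0598200 led with 34% in HPS32 heat and 36.9% in HJX heat, and Os03g0122200 with 56.2% in HPS32 28 °C and 52.1% in HJX 28 °C. In the L13 family Os03g0756000 led with 44.8% in HPS32 heat and 55.1% in HJX heat, and Os01g0749200 with 49.3% in HPS32 28 °C and 47.2% in HJX 28 °C. In S21 the abundant Os02g0189000 fell in both lines while Os08g0121800, at 4.10 ± 0.245 CPM in HPS32 heat, 4.92 ± 0.607 in HJX heat, 1.67 ± 0.152 in HPS32 28 °C and 2.37 ± 0.42 in HJX 28 °C, rose by 1.29 ± 0.22 and 1.05 ± 0.21.

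**Figure D5:**
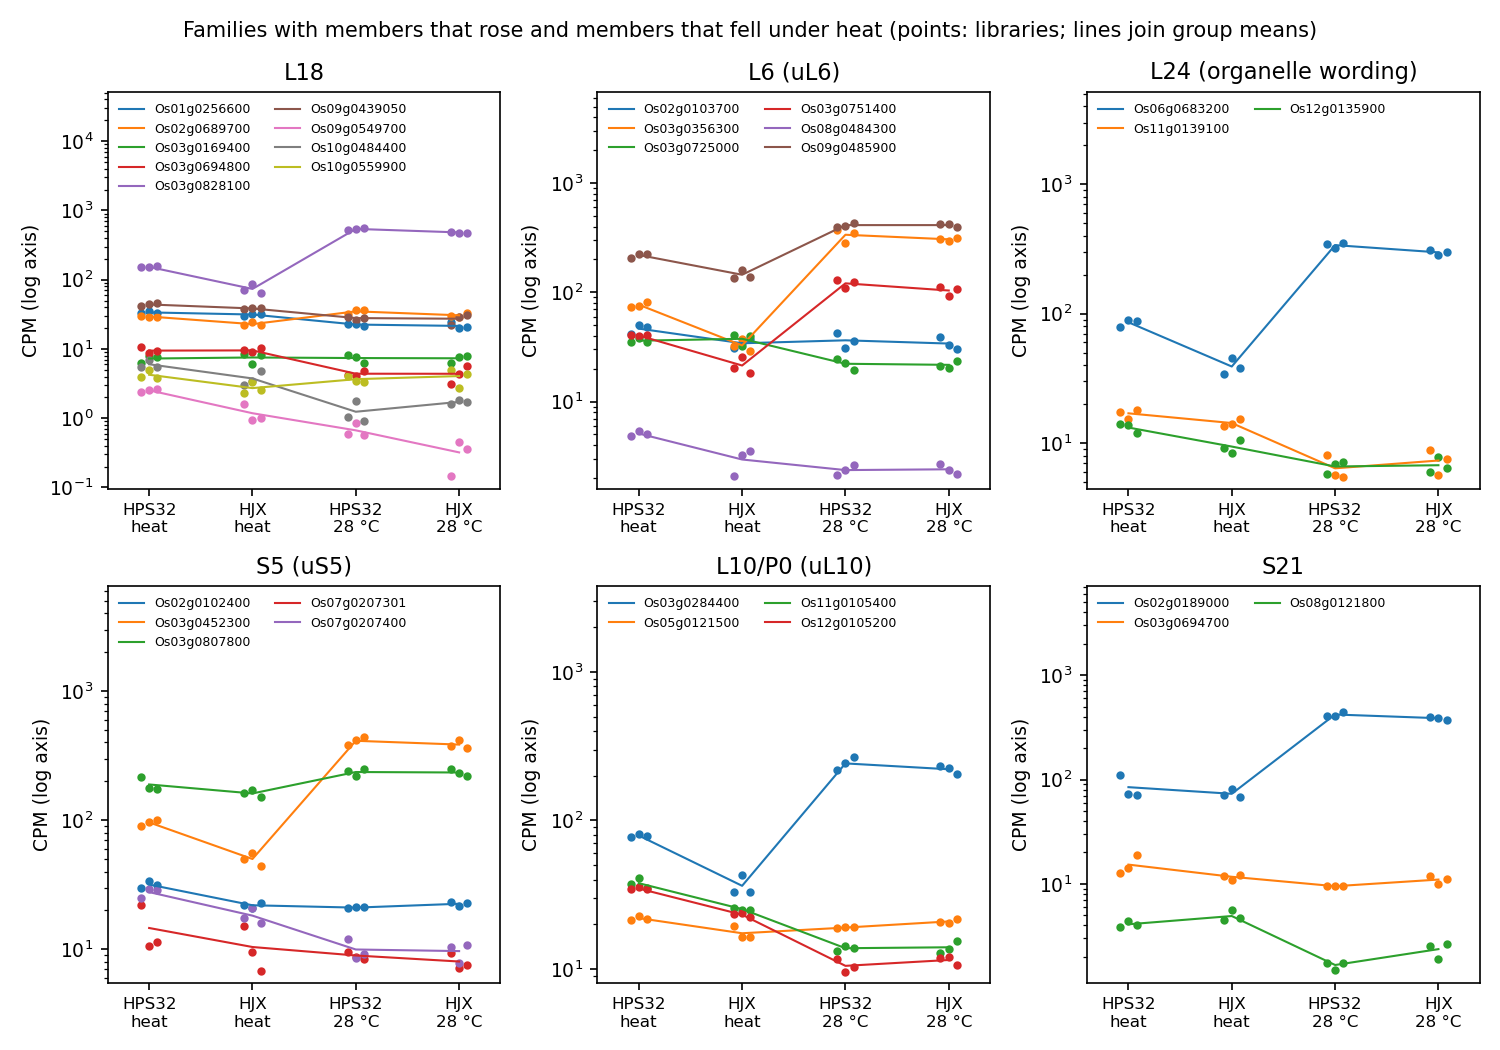
CPM (log axes) of the tested genes of the 6 families with the widest gap between genes that rose and genes that fell under heat; points are libraries and lines join the group means in the order HPS32 heat, HJX heat, HPS32 28 °C and HJX 28 °C. In each family the abundant gene at 28 °C fell under heat while genes of lower level rose, as Os03g0828100 and Os10g0484400 of L18 did.

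Genes that build ribosomes mostly rose under heat. Of 60 genes of ribosome assembly (nucleolar and ribosomal RNA processing wording), 57 were tested. In HPS32 50 rose and 1 fell (87.7% and 1.75%), against 34% and 36.4% of all tested genes. In HJX 50 rose and 3 fell (87.7% and 5.26%), against 38.1% and 36.8%. The medians were 1.24 and 0.92. Their share of the reads was 0.327% ± 0.00258 in HPS32 heat, 0.261% ± 0.00253 in HJX heat, 0.114% ± 0.00215 in HPS32 28 °C and 0.115% ± 0.00342 in HJX 28 °C. Summed as TMM-scaled CPM they stood at 2578 ± 3.25, 2462 ± 5.9, 1331 ± 20.2 and 1338 ± 6.72 in that order. The ratio of HPS32 heat to HJX heat was 1.25 by share and 1.05 by CPM, so its size rests on the scaling. Between the lines under heat 23 were higher in HPS32 and 4 lower (40.4% and 7.02%), against 21.6% and 23.6% of all tested genes. In the interaction 16 were positive and 1 negative (28.1% and 1.75%), against 13.3% and 16%. Of 92 genes of translation factors, 73 were tested. In HPS32 37 rose and 22 fell (50.7% and 30.1%), and in HJX 33 rose and 23 fell (45.2% and 31.5%). Under heat 26 were higher and 16 lower in HPS32 (35.6% and 21.9%), with a median of 0.08. The shares that fell or were lower in HPS32 heat were near or under those of all tested genes. The interaction was positive for 19 and negative for 6 of the translation factors (26% and 8.22%), against 13.3% and 16% of all tested genes.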

How the data were processed

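RNA sequencing covered 12 libraries in 4 groups of 3. HISAT2 2.0.5, featureCounts 1.5.0-p3 and DESeq2 1.20.0 are the tools named in the submitters' processing notes. The authors deposited raw read counts per gene and library, gene lengths, and log2 fold changes with p-values for pairs of groups. Coordinates are as deposited, and the genome build is not given in the sources used here. Columns of the heat libraries carry no replicate number of the labels and are called heat libraries 1 to 3.

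Members and lists were chosen with earlier results of these data known. Types follow the protein family named in each description.

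Counts were fitted over all 12 libraries and 25473 genes with edgeR 4.0.16 (R 4.3.3, TMM scaling, filterByExpr with a minimum count of 10, quasi-likelihood test, two-sided, Benjamini-Hochberg threshold 0.05). CPM are TMM-scaled, and FPKM were computed as CPM per kilobase of deposited gene length, since the deposited FPKM of the heat libraries were not used. SE are of log2 fold changes. The p-values cover 5 comparisons, and the fit was tested on simulated data. Labels give no strandedness.

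Named genes were, per subunit and comparison, the 3 largest called rises and falls (average log2 CPM at or above 1), and the 5 highest by FPKM. They also included the genes of the 6 families with the widest gap between rises and falls, and the 10 smallest interaction p-values. Not all of them are described above, among them Os02g0503400 (L29), one of the 5 highest by FPKM. Other genes (opposite calls, lower in HPS32 heat, L7/L12, changed family lead, or marked where they stand) were chosen after their values were seen.

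Same-numbered libraries at 28 °C of both lines deviated together at r = 0.448, 0.120 and 0.422 across the 20255 genes whose log2 CPM averaged 1 or more, but at 0.289, 0.0756 and 0.275 across all tested genes, where the second pair is weak. Whether the numbers pair them is therefore not settled, and the block is an alternative. Alternatives were RLE and total-count scaling, other filters, DESeq2 1.42.0, limma-voom (limma 3.58.1), the replicate block at 28 °C, the compared groups alone, a 2-fold threshold, single types, types by literal wording (added after seeing the data), and each library left out in turn.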

Additional observations from a re-analysis of the deposited data

Results flagged for a closer look

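For 34 of the named genes the heat effects of the lines differed by the interaction test (edgeR, adjusted over all tested genes). Each value below is the log2 heat effect in HPS32 minus that in HJX, and each gene has 3 libraries per group.

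Genes whose abundance fell under heat in both lines, and fell less in HPS32, had the following differences. Among the organelle type they were 0.99 for Os01g0678600 (S20), 0.96 for Os01g0805000 (L34), 0.96 for Os02g0822600 (L9), 0.95 for Os06g0683200 (L24), 0.89 for Os03g0828100 (L18) and 1.02 for Os03g0856500 (S30EA). They were 0.30 for Os01g0924000 (L27), 0.31 for Os05g0101400 (L28) and 0.31 for Os06g0647100 (L35). Among the shared type they were 1.00 for Os03g0284400 (L10/P0), 1.10 for Os03g0356300, 0.69 for Os03g0751400 and 0.61 for Os09g0485900 (all L6), 0.85 for Os03g0452300 (S5) and 0.94 for Os04g0691600 (S17). The acidic stalk gene Os06g0701400 had 0.73.

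Genes that rose in both lines, and rose more in HPS32, had 1.30 for Os06g0339800 (L30p/L7e), 0.52 for Os06g0546400 (L1p/L10e), 1.14 for Os10g0484400 (L18), 0.60 for Os11g0105400 and 0.71 for Os12g0105200 (both L10/P0), 0.57 for Os07g0207400 (S5), 0.48 for Os08g0517900 (S16) and 0.76 for an S10-family gene without an Os identifier. Genes called in 1 line only had 0.97 for Os08g0359600 (S17), 0.63 for Os02g0102400 (S5), 0.60 for Os03g0694700 (S21), 0.84 for Os03g0424800 (S19e) and 0.47 for Os05g0121500 (L10/P0). Os03g0818400 (S12/S23), higher under heat in HPS32 and lower in HJX, had 0.74.

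Only 4 of the 34 were negative: -0.81 for Os05g0169100 (L16p/L10e), -0.52 for Os10g0466700 (L14p/L23e), -0.47 for Os07g0673100 (S8e) and -0.46 for Os07g0292800 (L24e). Of the 34 calls, 8 were lost without 1 of the libraries: those of Os01g0924000, Os03g0694700, Os05g0101400, Os06g0647100, Os07g0207400, Os08g0517900, Os10g0484400 and the S10-family gene without an Os identifier, with adjusted p-values of at most 0.207. The value of the S10-family gene was 0.42 to 0.84 where its call was lost, which was without any one of 10 of the libraries, and lowest without the first 28 °C library of HJX.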

How the results depend on the processing

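For the counts over all members that rose and fell, RLE scaling, other filters, DESeq2, limma-voom, the compared groups alone, leaving out members that are no subunits by wording and each library left out moved none by over 1.5 times. Within subunits and types, and apart from total-count scaling, some counts of 1 became 2: those of organelle genes lower in HPS32 heat than in HJX heat under the block and the compared groups alone, and of small-subunit genes negative in the interaction under DESeq2. The replicate block at 28 °C, where the columns carry numbers, changed no count over all members by that much and gave 106 higher and 104 lower for heat in HPS32, 67 and 161 for heat in HJX, 203 and 9 for the lines under heat, 0 and 0 at 28 °C, and 174 and 6 for the interaction. Total-count scaling gave 197 and 42 for heat in HPS32, and 2 lower under heat and 1 negative in the interaction. With at least 2-fold also asked, there were 32 and 37, 21 and 63, 15 and 0, and 7 and 0. Of the cytosolic type alone there were 37 and 38, 16 and 72, 88 and 5, and 79 and 3, and of the organelle type alone 31 and 25, 26 and 28, 36 and 1, and 21 and 0.

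Types by literal wording moved no count of called rises or falls of the cytosolic or organelle type by over 1.5 times. They put the median of the organelle type for heat in HJX at -0.19, against 0.04. The counts of at least 2-fold moved more. For the organelle type, rises went from 11 to 6 in HPS32 and from 8 to 5 in HJX. Higher genes under heat went from 8 to 5 and positive interactions from 2 to 1. Falls of the cytosolic type in HPS32 went from 0 to 1. Summed CPM with TMM in place of read shares gave log2 ratios for heat in HPS32, heat in HJX and the lines under heat of -0.46, -0.74 and 0.34 (large subunit), -0.59, -0.98 and 0.43 (small), -0.06, -0.45 and 0.40 (cytosolic) and -1.54, -1.94 and 0.50 (organelle). The shares had given 0.10 and 0.50 for heat in HPS32 of the large subunit and cytosolic type, so those signs turned, as did those of all members (0.06 by share and -0.50 by CPM) and the shared type (0.09 and -0.47).

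Total-count scaling turned the sign of 9 values of named genes. For heat in HPS32 they became 0.31 (Os02g0689700), 0.54 (Os03g0169400), 0.39 (Os03g0424800), 0.24 (Os03g0807800), 0.15 (Os06g0701400), 0.33 (Os08g0116500) and 0.55 (Os10g0466700), and for heat in HJX 0.26 (Os02g0102400) and 0.03 (Os05g0121500). This scaling put the median of all tested genes at 0.54 in HPS32; the cause was not tested. Of the named calls, 3 of 48 for heat in HPS32, 3 of 48 in HJX, 7 of 43 under heat and 8 of 34 in the interaction were lost without 1 library.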
